A study of Mus musculus with 3 samples.

Results

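The hairpins of 9 neuron-enriched miRNA genes were examined for Argonaute (Ago) HITS‐clip peaks: Mir9-1, Mir9-2, Mir9-3, Mir124a-1, Mir124a-2, Mir124a-3, Mir137, Mir132 and Mir212. The rule that chose them used gene names and no measured value, though it was written with earlier results of these data known, and it drew on the 2202 miRNA hairpins of the mouse annotation, and each was read together with 5 kb of sequence on each side. The peaks came from N2A, a neuroblastoma cell line of the mouse, under basal conditions in medium with fetal bovine serum. The cells of each of the 3 libraries were crosslinked by ultraviolet light, first at 400 and later at 200 mJ/cm2, before Ago was immunoprecipitated. The libraries formed 1 group with no treatment or control arm, so members were compared between strands, with each other and with all annotated hairpins.

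A miRNA is transcribed as part of a longer RNA that folds into a hairpin. Cutting of the hairpin releases a 5p and a 3p arm, and an Argonaute protein holds one of them and pairs it with messenger RNAs through its seed, bases 2 to 8. A HITS‐clip peak on the strand of the hairpin can therefore come from the mature arm held by Ago. miR-9 acts in neural progenitors and neurogenesis, and miR-124 is the most abundant miRNA of differentiated neurons. miR-137 is known for its part in neuronal maturation. miR-132 and miR-212 come from neighbouring hairpins whose transcription responds to neuronal activity.

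The deposited table held 711377, 498071 and 829936 peaks for replicates 1, 2 and 3. It gives intervals and a score, with no reads, so the depth behind a peak was unknown and a peak was scored only as present or absent. Exon peaks on the same strand occurred in all 3 libraries for 11 of 12 listed neuroblastoma and neuron genes, with Nefl in replicate 2 alone, and also for 2 of 4 glial genes (Aqp4 and Mbp). Of all protein-coding genes 42.8% had such a peak in all libraries. With 4 glial genes the lists are too short to say how well such a peak separates them. The labels do not say whether the libraries came from separate cultures, so the spread between them may be technical.

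The mature sequences are given first, because the position of the peaks on them carries the main result and because copies of the same mature form matter for it. Capitals mark the seed, and sequences are from RefSeq. miR-132-3p and miR-212-3p shared the seed AACAGUC and were identical at 17 of 22 positions. The other 6 sequences each had a seed of their own.
miR-137-5p: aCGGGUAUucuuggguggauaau
miR-137-3p: uUAUUGCUuaagaauacgcguag
miR-132-5p: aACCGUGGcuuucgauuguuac
miR-132-3p: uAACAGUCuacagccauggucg
miR-212-5p: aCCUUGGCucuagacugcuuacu
miR-212-3p: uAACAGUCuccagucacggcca
miR-9-5p: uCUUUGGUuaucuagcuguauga
miR-9-3p: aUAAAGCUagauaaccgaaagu

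The hairpins that had any peak are shown with their arms in capitals, in build GRCm38.p6 and all on the plus strand. Mir137 lay at chr3:118433857-118433929, Mir212 at chr11:75173388-75173478, Mir132 at chr11:75173682-75173747 and Mir9-3 at chr7:79505264-79505353. The Mir212 and Mir132 hairpins were 203 nt apart.
Mir137: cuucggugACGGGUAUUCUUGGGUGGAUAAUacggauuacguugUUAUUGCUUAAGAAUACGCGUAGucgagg
Mir212: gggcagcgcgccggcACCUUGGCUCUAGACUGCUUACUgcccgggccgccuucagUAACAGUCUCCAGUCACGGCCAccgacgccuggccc
Mir132: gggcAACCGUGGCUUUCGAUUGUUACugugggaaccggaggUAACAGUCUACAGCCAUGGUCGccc
Mir9-3: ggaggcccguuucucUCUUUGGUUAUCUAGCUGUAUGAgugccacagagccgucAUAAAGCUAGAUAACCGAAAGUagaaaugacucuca

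Mir137, Mir132 and Mir212 had a same-strand peak over the hairpin in all 3 libraries. Mir137 had 2, 3 and 2 peaks in replicates 1, 2 and 3, Mir212 had 2 in each, and Mir132 had 1, 2 and 2. Mir9-3 had 1 peak in replicate 1 and none in the others. Mir9-1, Mir9-2, Mir124a-1, Mir124a-2 and Mir124a-3 had none in any library. The 3 of 9 members with a peak in all libraries stood beside 8.4% of all annotated hairpins (185 of 2202). At that share 0.756 of 9 hairpins would be called. Of these 2202 hairpins, 1018 had no annotated mature arms, while all 9 members had them. Among hairpins with arms the share was 16.8% (174 of 1035) where all mature forms are at 1 hairpin. Where a mature form is at 2 or more hairpins it was 2.68% (4 of 149). Without replicate 1 the share of all hairpins rose to 15.7% (346), while the members stayed at 3. With a peak in at least 1 library, 4 of 9 members stood beside 35.8% of all hairpins (788), which is close to the 3.22 members expected at that share. On the opposite strand 0 of 9 members had a peak in any library, beside 13.6% of all hairpins (299), a share at which 1.22 members would have had one.

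All but 1 of the peaks over Mir137, Mir212 and Mir132 covered a mature arm. Deposited peaks seem to carry 30 nt of padding at either end, so the part of a peak left after removing 30 nt from each end, its central part, was used to place it. The padding was read from peaks of the whole table and not from the arms. The lowest deposited start was -30, which lies before the first base of a chromosome, and neighbouring peaks of a library overlapped by 60 nt at most. The only other trim tried was none, with which miR-132-5p also counted as covered in all libraries. An arm was counted as covered when at least 15 nt of it lay in the central part. Of the 18 annotated arm copies of the members, 5 were covered in all libraries, namely miR-137-5p, miR-137-3p, miR-212-5p, miR-212-3p and miR-132-3p. miR-132-5p was covered in replicates 2 and 3, and the miR-9-3p copy of Mir9-3 in replicate 1. Over all annotated arms 9.9% were covered in all libraries (209 of 2112). Both arms were covered in all libraries at Mir137 and Mir212, 2 of the 9 members, beside 5.84% of all hairpins with a pair of annotated arms (50 of 856).

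At Mir212 the peaks were nearly the same in every library. The central part over miR-212-5p began at the first base of the arm in all 3 replicates and ended 4, 4 and 8 nt past its last base in replicates 1, 2 and 3. Over miR-212-3p it also began at the first base in all 3, and it ended 4, 8 and 9 nt past the last. Each of the 6 peaks was 86 to 91 nt wide as deposited, so each central part was 26 to 31 nt long, a little longer than the arms of 23 and 22 nt printed above. The peaks on the arms did not merge into 1 peak over the hairpin in any library.

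At Mir132 the arms differed between libraries. Over miR-132-3p the central part began at the first base of the arm in replicates 1 and 2 and 5 nt before it in replicate 3. In replicates 2 and 3 it ended 8 and 7 nt past the arm, but in replicate 1 the peak was 769 nt wide and its central part ran 687 nt past it. Over miR-132-5p the peaks of replicates 2 and 3 had the same ends, from the first base of the arm to 3 nt past its last. Replicate 1 had no peak there. With peaks over 200 nt set aside Mir132 lost its peak in replicate 1, and the members with a peak in all libraries were then Mir137 and Mir212.

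At Mir137 the ends of the peaks varied more than at Mir212. Over miR-137-5p the central part began at the first base in replicates 1 and 2 and 20 nt before it in replicate 3, and it ended 2, 3 and 4 nt past the last base. Over miR-137-3p it began 5, 10 and 7 nt before the arm in replicates 1, 2 and 3. It ended 3 and 9 nt past the arm in replicates 1 and 3, while in replicate 2 the peak was 481 nt wide and its central part ended 388 nt past it. Replicate 2 also had a further peak, 91 nt wide, whose central part lay upstream of the hairpin and covered neither arm.

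**Figure D1:**
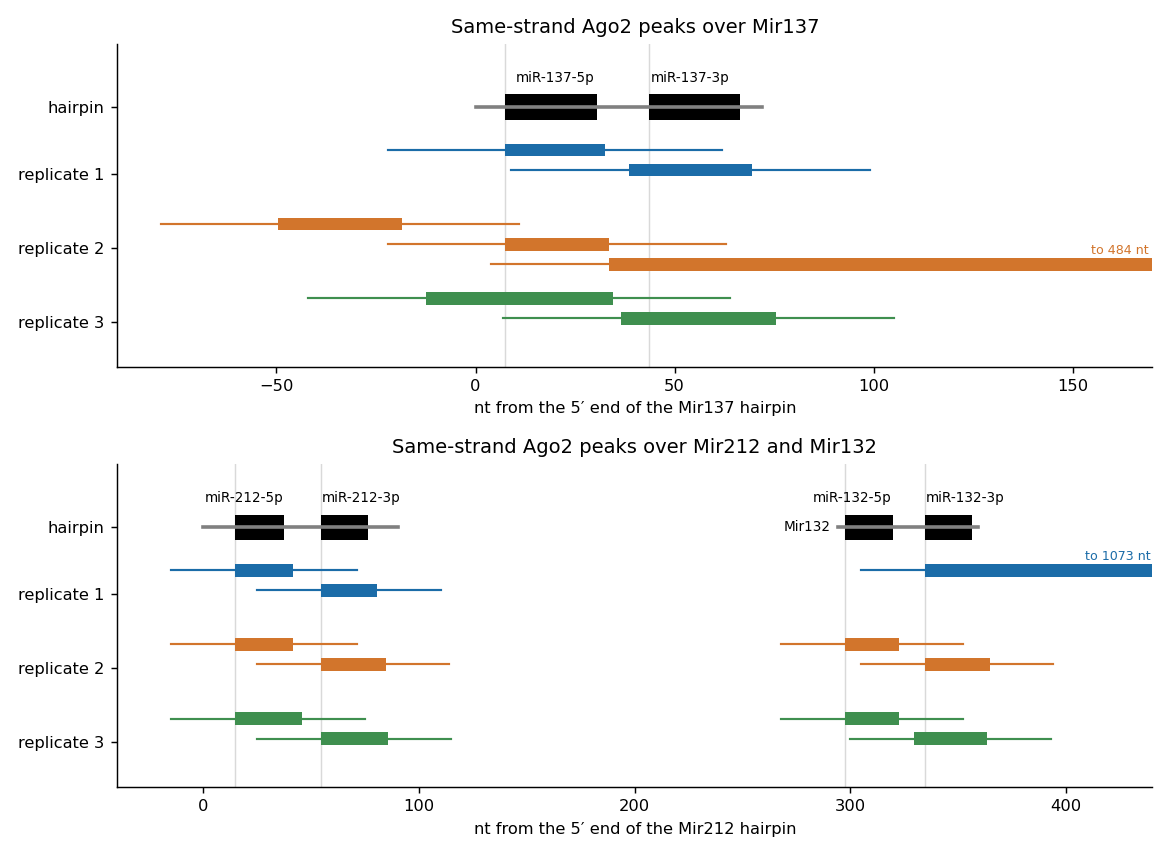
Same-strand peaks over Mir137 (upper panel) and over Mir212 and Mir132 (lower panel), by distance in nt from the 5′ end of the Mir137 or Mir212 hairpin. Black boxes are mature arms on the grey hairpin, thin lines are peaks as deposited, thick bars are their central parts and colours are replicates. The wide peaks of Mir137 in replicate 2 and Mir132 in replicate 1 run past the right edge. All 6 Mir212 central parts begin at the first base of an arm.

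Over the members the central part began exactly at the first base of the arm in 13 of 18 pairs of an arm and a covering peak, 72.2%. Over all annotated arms this was so in 660 of 1549 pairs, 42.6%. Without any trim, these same peaks began 30 nt before the arm, which was the most frequent distance over both sets of pairs. By replicate the exact start was found in 5 of 6, 5 of 6 and 3 of 6 member pairs. In the remaining 5 member pairs the central part began upstream, by 5 to 20 nt, and in none downstream. Even the 3335 nt peak at Mir9-3 began at the first base of miR-9-3p, with a central part that ran 3253 nt past the arm. The median central part ended 5.5 nt past the last base of a member arm and 4 nt past it over all arms. Among all arms some peaks covered both arms of a hairpin, as at Mir142, and counted as a pair with each. The central part of such a peak cannot begin at the first base of the 3p arm. No member peak covered both arms, so the shares of members and of all arms are not fully alike. Pairs from the same arm in 3 libraries are not independent, so no test was made.

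**Figure D2:**
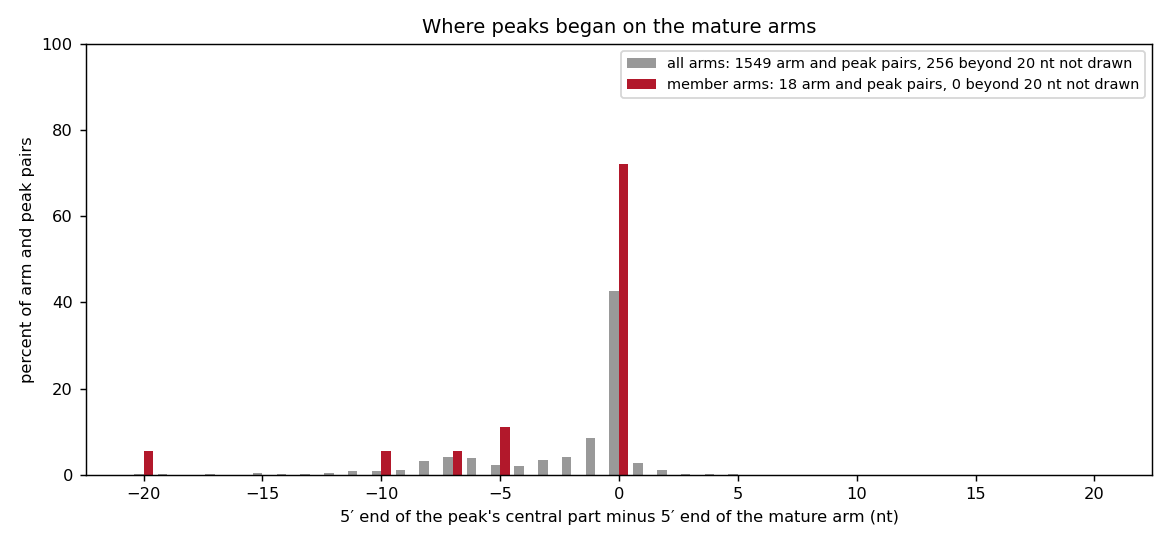
Distance in nt from the 5′ end of the mature arm to the 5′ end of the covering peak's central part (x axis), as the percent of arm and peak pairs (y axis), for all annotated arms in grey and member arms in red. Both sets have their highest bar at 0, 72.2% of member pairs and 42.6% of all pairs, and bars beyond 20 nt (256 of 1549 pairs, all non-member) are not drawn.

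The peaks over these hairpins also differed from other peaks in the deposited score, whose unit is not stated and which was 60 for nearly all peaks. Of the 19 peaks over member hairpins, 12 (63.2%) had a score under 60, the lowest being 55.9. Over all hairpins 583 of 1742 peaks (33.5%) did, and of all peaks 0.703%. All 6 Mir212 peaks were under 60. At Mir137 the 3p peaks scored 58, 58.2 and 58.2 in replicates 1, 2 and 3, while every 5p peak scored 60. At Mir132 both peaks of replicate 3 and the 3p peak of replicate 2 were under 60. In the 5 kb windows 0 of the 53 same-strand peaks elsewhere and 0 of the 28 opposite-strand peaks scored under 60. When only peaks with a score of exactly 60 were kept, Mir137 was the 1 member left with a peak in all libraries, and all hairpins so called fell to 46 (2.09%).

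The members with and without peaks were divided by the number of hairpins that hold the same mature form. The 3 members with a peak in all libraries are the 3 whose mature forms are each annotated at a single hairpin. miR-9-5p and miR-9-3p are annotated at 3 hairpins each, as are miR-124-5p and miR-124-3p. In the genome the miR-9-5p and miR-9-3p sequences each matched exactly at 3 places and the sequences of Mir137, Mir132 and Mir212 at 1. The same division held over all annotated arms. Of 1890 arms whose mature form is at 1 hairpin, 209 were covered in all libraries (11.1%, Wilson 95% interval 9.72 to 12.6%) and 864 in at least 1 (45.7%). Of 222 arms whose mature form is at 2 or more hairpins, 0 were covered in all libraries (Wilson 95% interval 0 to 1.70%) and 6 in at least 1 (2.70%). The miR-9-3p copy of Mir9-3 was among these 6. How reads that match several places were treated is not given in the sources used here, and its part in the result was not tested. An empty miR-9 or miR-124 hairpin in these files therefore cannot be told apart from a hairpin whose reads were not assigned.

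The count was also made by hairpin, since a hairpin with a repeated mature form can carry another arm that is not repeated. A same-strand peak in all libraries was present at 174 of 1035 hairpins whose mature forms are all at 1 hairpin (16.8%, Wilson 14.7 to 19.2%) and at 4 of 149 hairpins with a repeated form (2.68%, 1.05 to 6.70%). These 4 were Mir7-1, Mir125b-2, Mir219a-1 and Mir19b-1, named after their values were seen. Of their arms, miR-7a-1-3p and miR-125b-2-3p were covered in all libraries, and both are annotated at 1 hairpin. miR-19b-1-5p and miR-219a-1-3p, also at 1 hairpin, were covered in 2 libraries each. miR-219a-5p, annotated at 2 hairpins, was covered at Mir219a-1 in 1 library. The intervals cover only the counting of hairpins or arms.

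Other hairpin lists showed where the members stood. Among 24 other neuron-enriched hairpins (of the miR-7, miR-125b, miR-128, miR-138, miR-153, miR-181, miR-218 and other families), 4 had a peak in all libraries, 1 of 6 with unrepeated and 3 of 18 with repeated mature forms. In the let-7 family, widespread in differentiated cells, 4 of 12 did, 4 of 6 unrepeated and 0 of 6 repeated. In the proliferation-linked miR-17-92 and miR-106b-25 clusters 7 of 9 did, 6 of 7 unrepeated and 1 of 2 repeated. Hairpins listed for other cell types gave 0 of 9 for muscle, 0 of 1 for liver (Mir122), 5 of 6 for blood and 3 of 3 for endothelium and smooth muscle (Mir126a, Mir143 and Mir145a). A peak over a hairpin thus occurred also for miRNAs listed for other cell types, and their part in the member values was not tested.

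**Figure D3:**
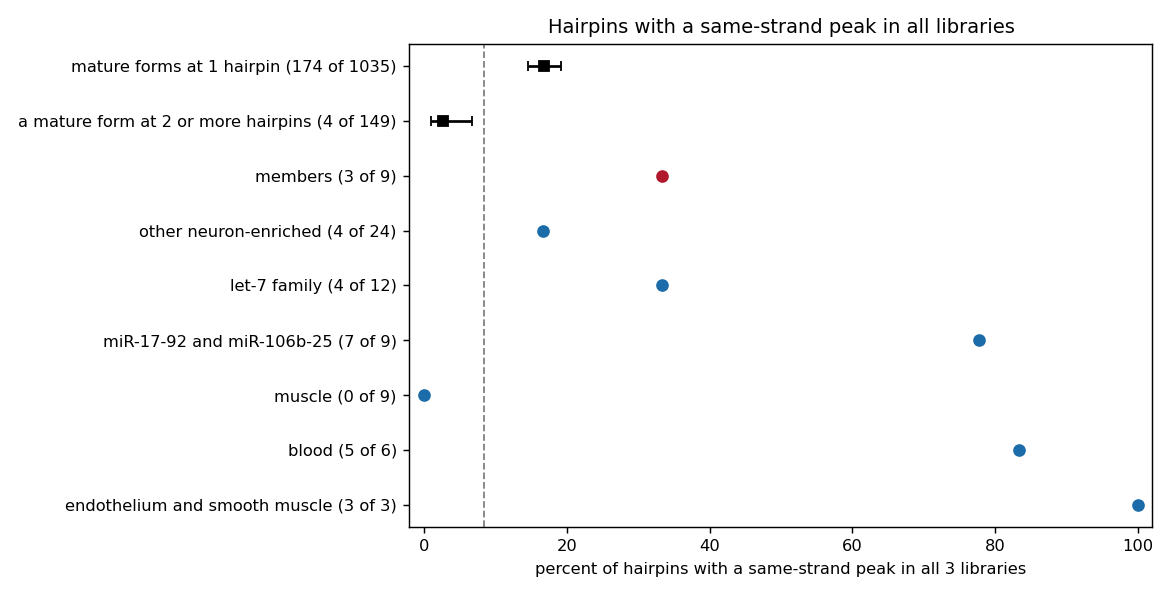
Percent of hairpins with a same-strand peak in all 3 libraries (x axis), for hairpins without and with a repeated mature form (black squares with Wilson 95% intervals), the members (red) and other lists (blue). The counts stand beside each name and the dashed line marks the 8.4% of all hairpins. The members, 3 of 9, lie level with the let-7 family, 4 of 12.

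Around the hairpins the same strand held more peaks than the opposite strand in each library. Mir132 and Mir212 share a window, which left 8 windows. These held 30, 18 and 24 same-strand peaks in replicates 1, 2 and 3 and 12, 5 and 11 on the opposite strand. The means were 24 ± 6 and 9.33 ± 3.79 (SD, n = 3), and the difference was 14.7 ± 2.89 peaks per library. An exact permutation test over the 3 libraries gave p = 0.25 (two-sided sign flips), which is the smallest p that 3 libraries allow. Part of this difference was the 19 peaks over the hairpins themselves. Without them the same strand held 24, 11 and 18 peaks, a mean of 17.7 ± 6.51, and the difference was 8.33 ± 3.21 (SD, n = 3). Counted for each hairpin with all peaks, the ratio of same to opposite strand was 2.5, 3.14 and 2.14 for the members and 1.76, 2.33 and 2.44 for all hairpins, so the ratio of the members lay above that of all hairpins in replicates 1 and 2 and below it in replicate 3.

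The Mir137 window held more of this difference than any other window, and 6 of the 13 peaks by which the strands differed in replicate 2. It had 16, 6 and 11 same-strand peaks in replicates 1, 2 and 3 against 3, 0 and 3 on the opposite strand. Of the 2202 hairpins, 18 (0.817%) had windows with at least as many same-strand peaks in every library. By the total of 33, 134 hairpins (6.09%) had at least as many. The median window of all hairpins held 2, 1 and 2. Without Mir137 the other 7 windows held 13 ± 1 same-strand and 7.33 ± 2.08 opposite-strand peaks per library (SD, n = 3), a difference of 5.67 ± 1.15 (exact permutation p = 0.25). With the hairpin peaks also left out, these 7 windows held 10, 8 and 9 same-strand peaks against 9, 5 and 8, a difference of 1.67 ± 1.15, while the Mir137 window still held 14, 3 and 9 against 3, 0 and 3. Of these, 1, 2 and 1 lay over another annotated hairpin, Gm24155, which left 13, 1 and 8. Of the 33 Mir137 peaks 24 were 86 to 200 nt wide, and 7 overlapped the hairpin itself.

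**Figure D4:**
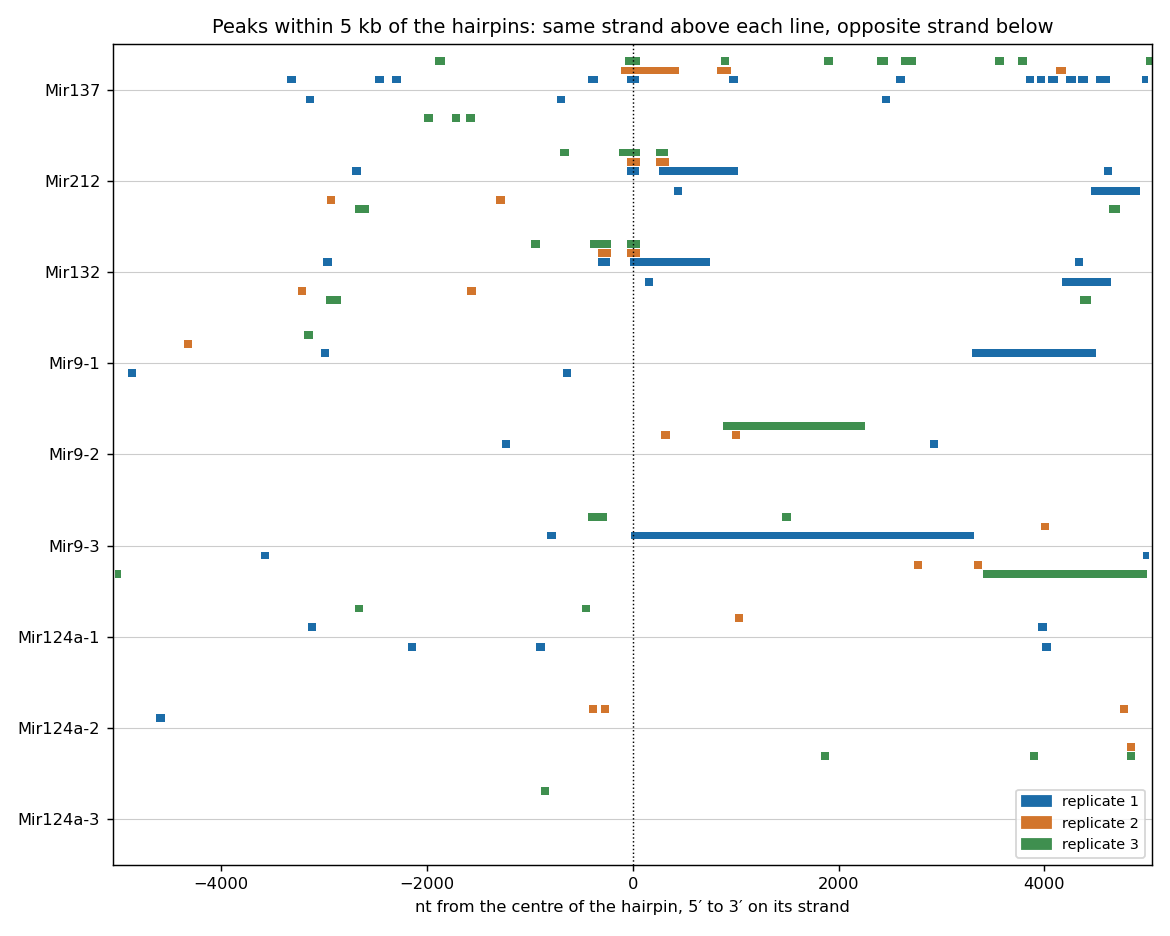
Peaks within 5 kb of each member hairpin, by distance in nt from its centre, with same-strand peaks above each line, opposite-strand peaks below, and 1 colour per replicate. Mir212 and Mir132 show the same peaks shifted. Peaks of all 3 replicates stack on the centre line at Mir137, Mir212 and Mir132, and those at Mir9-1, Mir9-2 and the 3 Mir124a hairpins leave it empty.

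The Mir212 and Mir132 window had 5, 4 and 6 same-strand peaks in replicates 1, 2 and 3 against 2, 2 and 3 on the opposite strand. Outside the hairpins it had 2, 0 and 2 against 2, 2 and 3, so the same strand was not higher there in any library. The 3 miR-9 windows together held 14 same-strand peaks over all libraries against 8 on the opposite strand, and the 3 miR-124 windows 10 against 7. At Mir9-2 the same strand had 2, 2 and 1 peaks and the opposite strand none. At Mir9-3 and Mir124a-2 the strands overlapped. Mir9-3 had 2, 1 and 2 against 2, 2 and 2 peaks, and Mir124a-2 had 1, 3 and 0 against 0, 1 and 3. They also overlapped at Mir9-1, with 2, 1 and 1 against 2, 0 and 0, and at Mir124a-1, with 2, 1 and 2 against 3, 0 and 0. Mir124a-3 had the fewest, 1 same-strand peak in replicate 3 and none on the opposite strand.

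**Figure D5:**
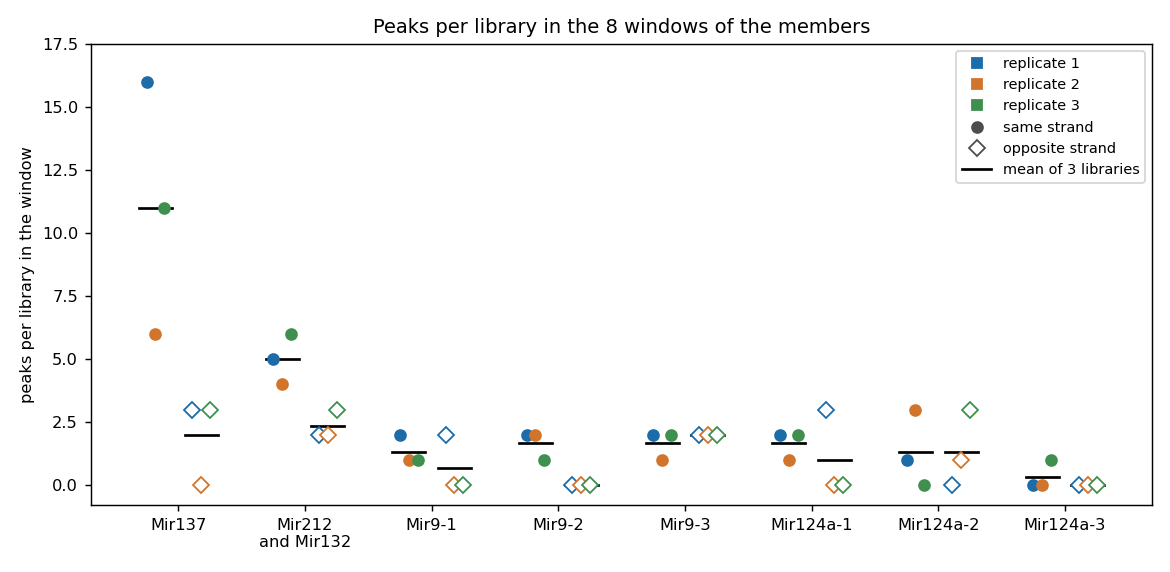
Peaks per library (y axis) in the 8 windows (x axis), with same-strand counts as filled circles, opposite-strand counts as open diamonds, 1 colour per replicate and a bar at the mean of the 3 libraries. The Mir137 window, with 16, 6 and 11 same-strand peaks, stands above the others.

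Near the hairpins without a peak, the closest same-strand peak lay at a different place in each library. At Mir9-2 it was 1158 nt upstream, 239 nt downstream and 838 nt downstream in replicates 1, 2 and 3. At Mir124a-2 it was 4492, 172 and 7679 nt upstream. At Mir124a-1 it was 3034 nt upstream, 949 nt downstream and 370 nt upstream. At Mir9-1 it was upstream in each, by 2902, 4236 and 3064 nt. At Mir124a-3 it was 10617 nt downstream, 6632 nt upstream and 776 nt upstream. Outside replicate 1, the closest peaks of Mir9-3 were 3923 nt downstream and 202 nt upstream.

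The annotation put 8 of the 9 hairpins inside a non-coding gene of their strand and Mir124a-3 at the edge of one. Mir137 (ENSMUSG00000065569.2) was exonic in 3 of 6 transcripts of Gm26871, a gene of 99.7 kb with 160, 51 and 64 same-strand peaks in replicates 1, 2 and 3. That is 1.6, 0.512 and 0.642 peaks per kb, highest in replicate 1. The nearest protein-coding gene on its strand was Dpyd, the first enzyme of pyrimidine breakdown, 128200 nt away, with 0.268, 0.136 and 0.146 peaks per kb. Mir132 (ENSMUSG00000065537.2) and Mir212 (ENSMUSG00000065590.1) lay in an intron of 1700016P03Rik, which had 3, 4 and 6 peaks over 5.07 kb. All of these but 2 in replicate 3 were the peaks over the hairpins. Ovca2, on the opposite strand, was the protein-coding gene nearest to both.

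The same-strand genes at the miR-9 and miR-124 hairpins had fewer peaks per kb than Gm26871 in each library. Mir9-1 (ENSMUSG00000106493.1, chr3:88215598-88215686) was intronic in Gm3764, which had 4, 2 and 2 peaks over 23.1 kb. A second annotated miRNA gene, Gm25641, lies across it on the opposite strand and had no peak. Mir9-2 (ENSMUSG00000065424.2, chr13:83738814-83738885) was exonic in 2 of 5 transcripts of C130071C03Rik, with 30, 11 and 20 peaks over 163 kb. The nearest protein-coding gene to Mir9-2 was Mef2c, a transcription factor of neurons and muscle. Mir9-3 (ENSMUSG00000093238.1) was intronic in Mir9-3hg, with 3, 3 and 8 peaks over 34.4 kb.

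Among the miR-124 hairpins, Mir124a-1 (ENSMUSG00000065597.1, chr14:64590657-64590741) was exonic in 2 of 4 transcripts of Mir124a-1hg, with 1, 1 and 2 peaks over 6.63 kb. Mir124a-2 (ENSMUSG00000093073.1, chr3:17795662-17795770) overlapped an exon of 1 of 7 transcripts of Mir124-2hg, with 3, 6 and 1 peaks over 19.1 kb. Mir124a-3 (ENSMUSG00000065454.2, chr2:180894040-180894107) touched the start of Gm27032, which had no peak. Peaks were thus present in the host genes of Mir124a-1 and Mir124a-2 in every library, while their hairpins had none. Of the 4 further annotated hairpins in the windows, Gm24155 in the Mir137 window had 1, 2 and 1 peaks on its strand in replicates 1, 2 and 3, and Mir3078, Mir3093 and Gm25641 had none.

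Seed matches in 3′UTRs gave a readout that did not use the hairpins. For each seed, matches were pooled over all 3′UTRs with a peak in a library. Their density inside peaks was divided by their density in the remaining sequence of these 3′UTRs. The log2 ratio was set beside the median of all 7-mers with the same number of A and T. For miR-137-3p (match AGCAATA) the log2 ratio was 0.34, 0.35 and 0.22 in replicates 1, 2 and 3, with a mean of 0.30 ± 0.07 (SD, n = 3) and a median of 0.19 for the like 7-mers. For miR-132-3p and miR-212-3p together (GACTGTT) it was 0.06, 0.14 and 0.26, with a mean of 0.15 ± 0.10 and a median of -0.01. For miR-9-5p (ACCAAAG) it was 0.20, -0.03 and 0.08, with a mean of 0.08 ± 0.11 and the same median of -0.01. The difference from the like 7-mers was 0.12 ± 0.09 for miR-137-3p, 0.17 ± 0.10 for the miR-132 and miR-212 seed and 0.10 ± 0.13 for miR-9-5p. Many like 7-mers had a ratio at least as high. In replicates 1, 2 and 3 these were 15.9, 22.3 and 47.2% for miR-137-3p, 34.0, 27.3 and 12.7% for the miR-132 and miR-212 seed, and 16.1, 54.6 and 34.2% for miR-9-5p. No test was made of these ratios, and miR-124 seeds were not analysed here.

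For the other arms the mean log2 ratio was 0.32 ± 0.04 for miR-9-3p, -0.08 ± 0.08 for miR-132-5p, -0.15 ± 0.37 for miR-137-5p and -0.44 ± 0.09 for miR-212-5p (SD, n = 3). Their like 7-mers had medians of 0.19, -0.30, -0.19 and -0.30. Genes with a match under a peak in all libraries were few for every seed. They were most for miR-9-3p, 80 of 2378 genes with a match, whose hairpins had no peak in all libraries. They numbered 57 of 2039 genes with a match for miR-137-3p (2.8%), 45 of 2569 for miR-9-5p (1.75%) and 42 of 2262 for miR-132-3p and miR-212-3p (1.86%). For miR-212-5p they were 15 of 2345, for miR-132-5p 7 of 560 and for miR-137-5p 3 of 214. Shares for like 7-mers were not computed.

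Known targets of these miRNAs were read for the same sites. Of 8 targets, 6 had a seed match in the 3′UTR, 4 had a peak somewhere in the 3′UTR in all libraries, and 0 had a peak over the match in all libraries. Of all 3′UTRs, 23.2% had a peak in all libraries. The share of genes with a match under a peak in all libraries was below 3% for these seeds, as given above, so a count of 0 in so short a list says nothing about the targets. Rasa1, a brake on Ras signalling and a target of miR-132, had its match under a peak in replicates 1 and 3. Kdm1a, a histone demethylase and a target of miR-137, had its match under a peak in replicate 2. Onecut2, a transcription factor targeted by miR-9, held 14 matches in a 3′UTR of 14359 nt, of which 0, 3 and 5 were under peaks in replicates 1, 2 and 3. Rest, the repressor of neuronal genes and a target of miR-9, had peaks in its 3′UTR in every library but none over its match. The matches of Nr2e1 and Arhgap32 were under no peak, and Hes1 and Ezh2 had no match.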

How the data were processed

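Ago HITS‐clip was done on 3 samples of N2A cells. The authors called peaks per sample and deposited 1 table with the interval, strand, score and sample of each. The deposited score has no stated unit and lay between 54.6 and 60. The submitters' processing notes name FastQC, cutadapt, STAR and mm10. The peak caller, its threshold, the versions and the handling of reads with several matches are not given in the sources used here. The table has 0 value columns of other samples.

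Starts were read as counted from 0. Hairpins and host genes came from GENCODE mouse M21, arms and sequences from RefSeq (GRCm38.p6), where 1184 of 2202 hairpins had arms. A peak was over a hairpin when they shared at least 1 nt. Windows reached 5 kb beyond the hairpin and were merged where they overlapped. The 21671 3′UTRs were the longest per gene. All members and arms and the genes overlapping them were named. The nearest protein-coding gene was named only for Mir137, Mir132, Mir212 and Mir9-2. Some listed targets and marker genes are not reported here. Members and lists were chosen with earlier results of these data known. The peak table gives no depth, and intervals (Wilson, 95%) cover counting only. Overlap search and densities were tested on simulated data. Alternatives changed the overlap, peak width, score, libraries, window and site type. Tools were scipy 1.17.1, pandas 2.3.3, numpy 2.4.6 and matplotlib 3.10.9 under Python 3.11.15.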

Additional observations from a re-analysis of the deposited data

How the results depend on the processing

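Over 8 results and 65 alternatives, 52 gave a count within 1.5 times the reported one, or a mean closer to it than 1 SD, and 13 did not. The members with a same-strand peak in all libraries were 3 without each replicate, with central parts and with at least 50% of the hairpin inside 1 peak. They were 2 (Mir137 and Mir212) with peaks of 86 to 200 nt or of at most 200 nt, and 1 (Mir137) with a score of exactly 60. No alternative gave a member an opposite-strand peak. Covered arms were 5 or 6 without each replicate, 2 with peaks of 86 to 200 nt (both of Mir212) and 1 with a score of exactly 60. The limit of 86 nt left out the miR-137-5p peak of replicate 1, which was 85 nt wide. The limit of 200 nt left out the miR-137-3p peak of replicate 2, which was 481 nt wide. All hairpins with a peak in all libraries lay between 206 and 346 with each replicate left out in turn, highest without replicate 1. They were 152 with peaks of at most 200 nt, 92 with peaks of 86 to 200 nt and 46 with a score of exactly 60, where fewer peaks were used. Same-strand peaks per library were 13.3 with 2 kb on each side, 41.7 with 10 kb and 12 with peaks of 86 to 200 nt, against 3, 20.7 and 1 on the opposite strand. The log2 ratio of miR-9-5p was 0.25 for matches followed by A, where its like 7-mers had a median of 0.05. That of miR-137-3p was 0.39 with central parts, 0.41 with peaks of 86 to 200 nt and 0.43 for matches followed by A, beside like 7-mers at 0.17, 0.25 and 0.26. For these values the cause was not tested. The depth of the libraries is unknown, so a hairpin without a peak is only one where none was called. With 1 group, no pairing of libraries between groups applied.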
